A study of Mus musculus with 6 samples.

Results

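The guanylate-binding proteins (GBP) are encoded in the mouse by clusters of Gbp genes on chromosomes 3 and 5. The 10 listed members of these clusters, Gbp2, Gbp2b, Gbp3, Gbp5 and Gbp7 on chromosome 3 and Gbp4, Gbp6, Gbp8, Gbp9 and Gbp10 on chromosome 5, were taken by symbol from the 24411 features of the count tables. Primary microglia (PM) were treated with GSK-J4, an inhibitor of the jumonji H3K27 demethylases, or with LPS, the bacterial ligand of TLR4, together with GSK-J4, with 3 libraries per group. GSK-J4 was present in both groups at 10 µM, LPS was added to one of them at 10 ng/ml, and RNA was collected at 4 h. Every difference given here is therefore between PM with and without LPS, in the presence of GSK-J4. Untreated and LPS-only PM were not analysed here. The PM were shaken off mixed glial cultures made from pooled brains of early postnatal ICR mice, so separate animals cannot be told apart. The study describes the samples of a group as independent biological replicates, and the p values measure the spread between these libraries.

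GBPs are large GTPases induced by interferons and by microbial ligands. They assemble on vacuoles and on the surface of intracellular pathogens, open them to cytosolic sensors and promote caspase and inflammasome responses. Some of them carry a C-terminal prenylation signal by which they attach to membranes, and their delivery to vacuoles depends on the ATG8 conjugation system of autophagy. Their promoters are known targets of interferon regulatory factors through the interferon-stimulated response element (ISRE) and of activated STAT dimers through the gamma-activated site (GAS).

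The promoters of the chromosome 3 members are shown first, because an ISRE match is what these promoters share. A promoter was taken as the 250 bases before and 50 bases after each start in the RefSeq table of GRCm38, the assembly also called mm10, and 5 of the 10 members had one there, all on chromosome 3. The chromosome 5 members were not analysed here in this respect. An ISRE was searched as GAAANNGAAA on both strands, and the bases around each match are printed on the plus strand, 5′ to 3′, with the match in capitals.
Gbp5, chr3:142496744-142496803: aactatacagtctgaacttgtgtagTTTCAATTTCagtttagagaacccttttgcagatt
Gbp7, chr3:142530258-142530317: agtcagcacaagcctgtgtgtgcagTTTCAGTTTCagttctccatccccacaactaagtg
Gbp3, chr3:142559974-142560039: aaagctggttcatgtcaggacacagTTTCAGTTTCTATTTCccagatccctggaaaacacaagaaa
Gbp2b, chr3:142594685-142594744: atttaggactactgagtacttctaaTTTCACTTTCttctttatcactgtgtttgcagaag
Gbp2, chr3:142620579-142620638: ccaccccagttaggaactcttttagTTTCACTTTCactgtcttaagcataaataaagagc

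The match began 165 bases before the start in Gbp5, 137 in Gbp2b, 59 in Gbp2 and 53 in Gbp7. In Gbp3 the capitals cover matches at 45 and 39 bases before the start, which overlap, and the promoter of a second Gbp3 start held no match. All 5 members thus had at least 1 ISRE match. Of their promoters, 6 in all, each but the second of Gbp3 held one, against 3.44% of all 32851 promoters in the table. The GAS, searched as TTCNNNGAA, matched in Gbp5 and Gbp7, against 8.3% of all promoters, and the NF-kB consensus matched in Gbp5, against 4.51%. The 250 bases before the Gbp5 start, from the member with the highest level in LPS + GSK-J4, hold all of these motifs. In capitals they are, in order, a GAS, the ISRE, the NF-kB match and a second GAS.
Gbp5, chr3:142496684-142496933: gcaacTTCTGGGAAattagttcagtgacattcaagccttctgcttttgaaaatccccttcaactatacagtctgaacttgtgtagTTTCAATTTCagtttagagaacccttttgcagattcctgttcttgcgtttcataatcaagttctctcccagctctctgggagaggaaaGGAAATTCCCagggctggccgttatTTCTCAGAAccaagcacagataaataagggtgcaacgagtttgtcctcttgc
A match is a description of the letters in these windows, and binding was not measured in these libraries.

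Each library held 2597505 to 3472716 fragments assigned to genes, in which 13919 to 15344 genes had at least 1 count. The ribosomal feature Rn45s took 22.2% to 32.4% of the fragments in GSK-J4 and 45.8% to 48.1% in LPS + GSK-J4, and levels are given as CPM (counts scaled to a common library size) after TMM scaling, for which a level of 3 counts equals 0.673 to 1.24 CPM. Replicate 3 stood apart from the other 2 in both groups, with a chi-square per degree of freedom of 5.81 to 12.5 for its pairs against 2.12 and 2.32 for replicates 1 and 2. All 10 microglial markers were measured and none passed both thresholds. Each had a negative log2-fold change (median -0.38), with Cx3cr1 (-0.48, adjusted p = 0.00354) and Csf1r (-0.46, adjusted p = 0.0045) under 0.01 in adjusted p. The summed level of the 10 was 3190 to 3280 CPM in GSK-J4 and 2510 to 2630 in LPS + GSK-J4. The summed level of 7 astrocyte markers was 51.2 to 56.5 and 126 to 153 CPM, with Gfap up-regulated (log2-fold change 1.70, adjusted p = 9.28e-06), that of 7 oligodendrocyte markers 120 to 147 and 227 to 253 CPM, and that of 4 fibroblast markers 69.4 to 254 and 126 to 382 CPM. The summed level of 4 neuron markers was 6.06 to 7.08 and 14.1 to 16.4 CPM, and that of 3 endothelial markers, with Cldn5 at 0 in all libraries, 4.04 to 6.97 and 7.25 to 7.85 CPM. Markers of T and NK cells stayed at or under 0.781 CPM in every library, with Cd3g and Nkg7 at 0. The part of these other cells in the Gbp results was not tested, and in bulk RNA fewer cells of a type and less RNA per cell cannot be told apart.

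The members Gbp5, Gbp7, Gbp3 and Gbp2 on chromosome 3 and Gbp10 and Gbp6 on chromosome 5 were higher with LPS in GSK-J4-treated PM. Gbp9 was at the same level in both groups within its error, and Gbp2b, Gbp4 and Gbp8 were too low to enter the test. The thresholds for a call were 0.01 for the adjusted p and 1.5 for the log2-fold change, which 2.95% of the 10133 genes tested met as higher and 0.809% as lower. Of the 10 members 7 were tested, 6 were called higher and 0 lower. In 6 of the 7 the lowest LPS + GSK-J4 value exceeded the highest GSK-J4 value, as for 19.8% of all genes tested. Most members passed the filter on low counts, about 3.17 CPM before TMM scaling, through their LPS + GSK-J4 libraries alone. Only Gbp9 reached that level in all 3 GSK-J4 libraries. The counts of called members therefore describe the family and give no support of their own.

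**Figure D1:**
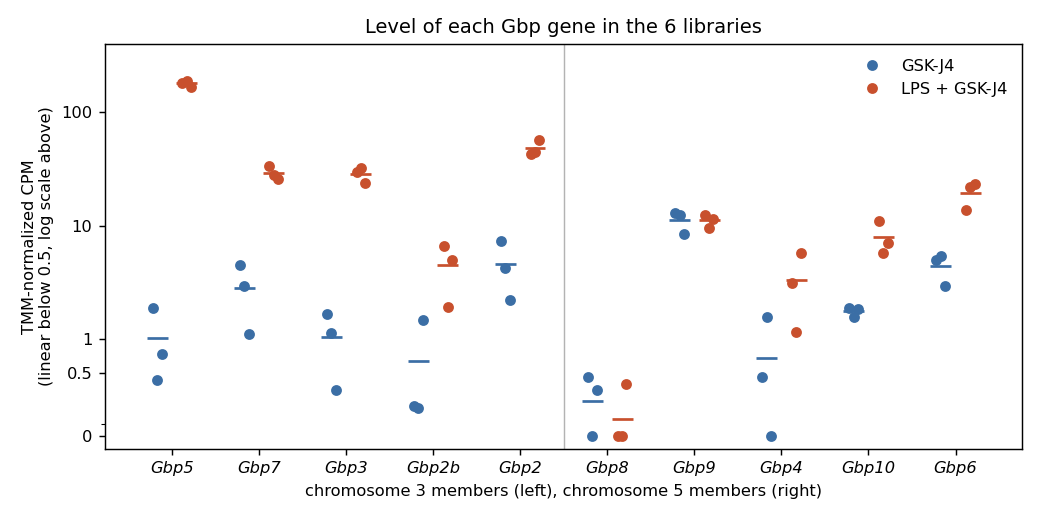
Level of each Gbp gene in each of the 6 libraries, in TMM-normalized CPM on an axis that is linear below 0.5 and logarithmic above, with a horizontal bar at the mean of the 3 libraries of a group. Gbp5 lies at 167 to 190 CPM in LPS + GSK-J4, the points of Gbp9, Gbp4 and Gbp8 overlap between groups, and those of the other 7 genes do not.

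Gbp5 (chr3:142496934-142522344, plus strand), a GBP known to promote assembly of the NLRP3 inflammasome, was the most induced member. Its level was 1.89, 0.449 and 0.733 CPM in the GSK-J4 libraries and 183, 190 and 167 CPM in the LPS + GSK-J4 libraries. The GSK-J4 values came from 8, 2 and 2 fragments and the others from 468, 499 and 404, so the groups were far apart and the size of the fold rests on 12 fragments. The mean rose from 1.02 ± 0.762 to 180.0 ± 12 CPM (SD, n = 3). The log2-fold change was 7.37 ± 0.25 (SE, adjusted p = 4.52e-12), which placed it at rank 3 of the 10133 genes by fold change. SE is here the absolute log2-fold change divided by the square root of the F statistic of the test. It is small for genes with few GSK-J4 fragments, such as Gbp5 and Gbp3, and understates the uncertainty of their folds. Without GSK-J4 replicate 1, which held 8 of the 12 GSK-J4 fragments of Gbp5, the log2-fold change was 8.22. Without GSK-J4 replicate 2 it was 6.93.

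Gbp3 (chr3:142560016-142573213) and Gbp7 (chr3:142530336-142550151) are adjacent genes that share more coding sequence with each other than with the rest of the chromosome 3 cluster. Gbp3 was at 1.65, 1.12 and 0.367 CPM in GSK-J4 and at 29.7, 32.0 and 23.5 CPM in LPS + GSK-J4. Gbp7 was at 4.48, 2.92 and 1.1 CPM in GSK-J4 and at 33.6, 27.9 and 25.6 CPM in LPS + GSK-J4. In both genes the lowest LPS + GSK-J4 library was far above the highest GSK-J4 library. Gbp3 rose with a log2-fold change of 4.61 (SE 0.33, adjusted p = 3.80e-08), and Gbp7 with 3.25 (SE 0.30, adjusted p = 8.39e-07). In both genes replicate 3 was the lowest library of its group.

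Gbp2 (chr3:142620663-142638008), a prenylated GBP that coats pathogen vacuoles, had the highest mean GSK-J4 level per length of the chromosome 3 members. It was at 7.31, 4.26 and 2.2 CPM in GSK-J4 and at 42.9, 44.3 and 57.4 CPM in LPS + GSK-J4. The lowest LPS + GSK-J4 library was well above the highest GSK-J4 library, and here replicate 3 was the highest of the LPS + GSK-J4 group. The log2-fold change was 3.31 (SE 0.27, adjusted p = 2.49e-07), a 9.88-fold rise from 4.59 ± 2.57 to 48.2 ± 8.0 CPM (SD, n = 3). An exon of Gbp2 overlaps the antisense microRNA gene Mir6381 (chr3:142623860-142623946, minus strand), where the strand decides to which gene a fragment is assigned. The Gbp2 counts in LPS + GSK-J4 were 110, 116 and 139 with strand and 102, 105 and 125 without.

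Gbp2b (chr3:142594816-142619179), the gene next to Gbp2 and the closest to it in sequence, was rare. It was counted 1, 1 and 4 times in GSK-J4 and 17, 5 and 12 times in LPS + GSK-J4, which is 0.236, 0.225 and 1.47 CPM against 6.64, 1.91 and 4.96 CPM. The groups did not overlap, and the gene did not pass the filter. Without the filter its log2-fold change was 2.92 (SE 0.63, adjusted p = 6.02e-05), where 2.1% of 18016 genes and 7 of the 10 members were called higher. Adjusted p values of that fit are not comparable with those of the main fit, since for Gbp5 they were 1.61e-189 and 4.52e-12. In DESeq2 the log2-fold change of Gbp2b was 2.94 (adjusted p = 0.0112), which missed the threshold.

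**Figure D2:**
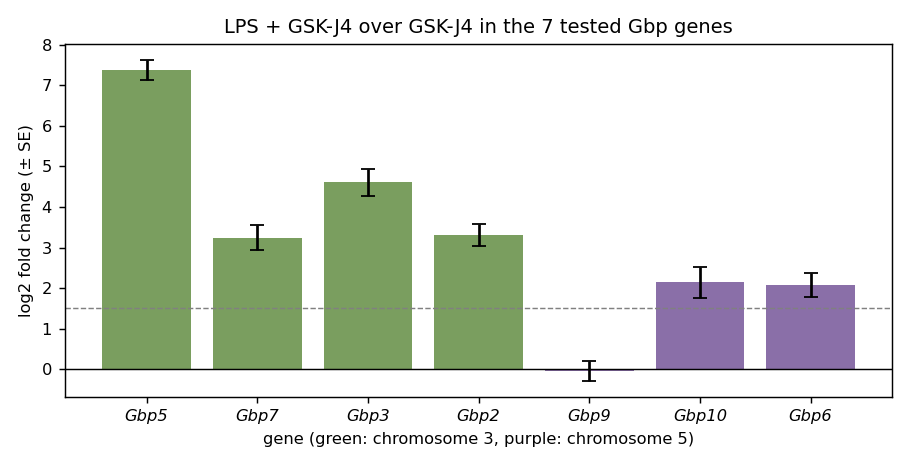
Log2-fold change of LPS + GSK-J4 over GSK-J4 for the 7 tested Gbp genes, as bars with the SE derived from the F statistic of the edgeR test. The threshold of 1.5 is a dashed line. The 4 chromosome 3 bars run from 3.25 to 7.37, Gbp10 and Gbp6 stand at 2.15 and 2.08, and the bar of Gbp9 is at -0.03.

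On chromosome 5, where the cluster is on the minus strand, Gbp6 (chr5:105270702-105295871) and Gbp10 (chr5:105215699-105239533) rose, with smaller fold changes than the 4 tested chromosome 3 members, a difference that was not tested. Gbp6 was at 4.96, 5.39 and 2.93 CPM in GSK-J4 and at 13.7, 21.8 and 23.1 CPM in LPS + GSK-J4. Gbp10 was at 1.89, 1.57 and 1.83 CPM in GSK-J4 and at 10.9, 5.72 and 7.02 CPM in LPS + GSK-J4. Neither gene overlapped between groups. The SD in CPM was larger in LPS + GSK-J4, where the levels were also higher (5.11 against 1.31 for Gbp6, 2.71 against 0.169 for Gbp10). The log2-fold change was 2.08 for Gbp6 (SE 0.29, adjusted p = 6.76e-05) and 2.15 for Gbp10 (SE 0.39, adjusted p = 0.00068). Their difference was not tested, and their counts are not fully separate. Of the 101-base windows of the Gbp10 transcript 55.8% also occur in Gbp6, and 43.9% of those of Gbp6 occur in Gbp10, so that a fragment lying in such a window cannot be placed uniquely.

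Gbp9 (chr5:105076464-105110357) was the member with the highest GSK-J4 level per full transcript length and did not pass the test. Its place above Gbp6 is uncertain, because fragments that map to both Gbp6 and Gbp10 are not counted. Gbp9 was at 13.0, 12.4 and 8.43 CPM in GSK-J4 and at 12.5, 9.54 and 11.6 CPM in LPS + GSK-J4. The groups overlapped, and the lowest library was GSK-J4 replicate 3. The log2-fold change was -0.03 (SE 0.25, adjusted p = 0.942) with an approximate 95% interval of -0.52 to 0.45. Changes within these bounds remain compatible with the data. Its sign changed when single libraries were left out.

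Gbp4 (chr5:105115767-105139586) and Gbp8 (chr5:105012513-105053609) were near the limit of detection. Gbp4 was counted 2, 7 and 0 times in GSK-J4 and 8, 3 and 14 times in LPS + GSK-J4, with overlapping groups, and without the filter its log2-fold change of 1.99 (SE 0.63, adjusted p = 0.0139) missed the adjusted p threshold. Gbp8 was counted 2, 0 and 1 times in GSK-J4 and 0, 0 and 1 times in LPS + GSK-J4, at or under 3 counts in every library, and no fold is given for it. Gbp11, a feature of the chromosome 5 cluster that is not among the members, was counted 2, 5 and 0 times in GSK-J4 and 1 time in each LPS + GSK-J4 library. Without the filter on low counts the median log2-fold change of the 10 members was 2.51, against 0.12 over all 18016 genes in that fit.

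Levels between genes were compared as CPM per kb of the RefSeq transcript. The full length was used, although fragments that map to several places are in no gene's count. Of the 101-base windows, 46.3% in Gbp6 and 56.7% in Gbp10 also occur in other genes. The levels of these genes may therefore be too low, and their places in the orders below are uncertain. In LPS + GSK-J4 the order was Gbp5 (58.9 ± 3.93), Gbp2 (19.2 ± 3.18), Gbp3 (10.6 ± 1.64), Gbp6 (7.49 ± 1.96), Gbp7 (5.17 ± 0.731), Gbp9 (2.56 ± 0.344), Gbp10 (2.24 ± 0.768), Gbp2b (1.59 ± 0.849), Gbp4 (0.738 ± 0.513) and Gbp8 (0.0560). Neighbours in this order did not overlap between Gbp5 and Gbp2, Gbp2 and Gbp3, Gbp7 and Gbp9, and Gbp4 and Gbp8, and the libraries of the other neighbours overlapped. In GSK-J4 the order was Gbp9 (2.57 ± 0.562), Gbp2 (1.83 ± 1.02), Gbp6 (1.70 ± 0.503), Gbp7 (0.505), Gbp10 (0.50), Gbp3 (0.390), Gbp5 (0.335), Gbp2b (0.228), Gbp4 (0.150) and Gbp8 (0.114), and the libraries of neighbours were apart only between Gbp6 and Gbp7. Gbp5 was thus in place 7 without LPS and in place 1 in LPS + GSK-J4. With the length of all exons joined in place of the RefSeq transcript, Gbp6 and Gbp7 changed places in LPS + GSK-J4, where Gbp5 stayed in place 1 at 27.1 CPM per kb, and Gbp5 was in place 8 in GSK-J4.

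The composition of the family changed with these levels. Gbp fragments numbered 154, 133 and 53 in the GSK-J4 libraries and 860, 877 and 790 in the LPS + GSK-J4 libraries, and their summed level was 28.5 ± 8.53 and 332 ± 5.19 CPM (SD, n = 3). The chromosome 3 members held 42.9%, 30.1% and 30.2% of the Gbp fragments in GSK-J4 and 88.0%, 88.6% and 85.3% in LPS + GSK-J4, so that the groups did not overlap. The share of Gbp9 was 40.2% ± 4.00 without LPS and 3.37% ± 0.459 with it, while that of Gbp5 was 3.49% ± 1.86 and 54.1% ± 2.91 (SD, n = 3). Gbp2 kept close shares, 15.2% ± 4.47 and 14.5% ± 2.66, as did Gbp7 with 9.24% ± 3.35 and 8.72% ± 1.13. These shares are descriptions of the same counts and were not tested. Fragments that map to both Gbp6 and Gbp10 are missing from them, so the share of chromosome 5 may be too low in both groups.

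**Figure D3:**
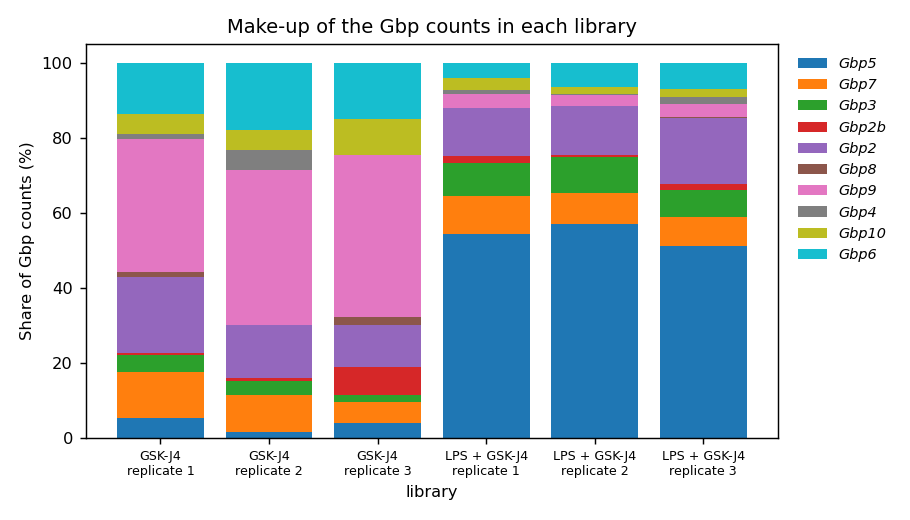
Share of the Gbp fragments that each of the 10 members holds in each library, as stacked bars that sum to 100%. The band of Gbp9 takes 35.7% to 43.4% in the 3 GSK-J4 libraries, and that of Gbp5 takes 51.1% to 56.9% in the 3 LPS + GSK-J4 libraries.

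The coding sequences set the chromosome 5 members together, but not all of those on chromosome 3. Identity between aligned coding sequences was 55.9% to 98.4% for the 20 pairs on the same chromosome (median 76.6%) and 50.5% to 70.5% for the 25 pairs on different chromosomes (median 58.5%). Pairs within chromosome 5 were at 76.5% or more. Gbp3 and Gbp7 were 76.1% identical to each other and 61.7% to 70.5% identical to the chromosome 5 members. With Gbp5, Gbp2b and Gbp2, on their own chromosome, they were at 55.9% to 57.9%. Gbp10 and Gbp6 were the closest pair, with 98.4%, and both were up-regulated. Gbp9 was 89.5% identical to Gbp6 and did not pass the test, so close coding sequence went with different responses in this pair. Gbp2b and Gbp2 were 82.5% identical. Of the other members, Gbp8 shared 3.69% of its 101-base windows with genes elsewhere, Gbp4 2.82%, Gbp9 1.96%, Gbp3 0.891% and Gbp7 0.417%, and Gbp5, Gbp2b and Gbp2 shared 0.

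**Figure D4:**
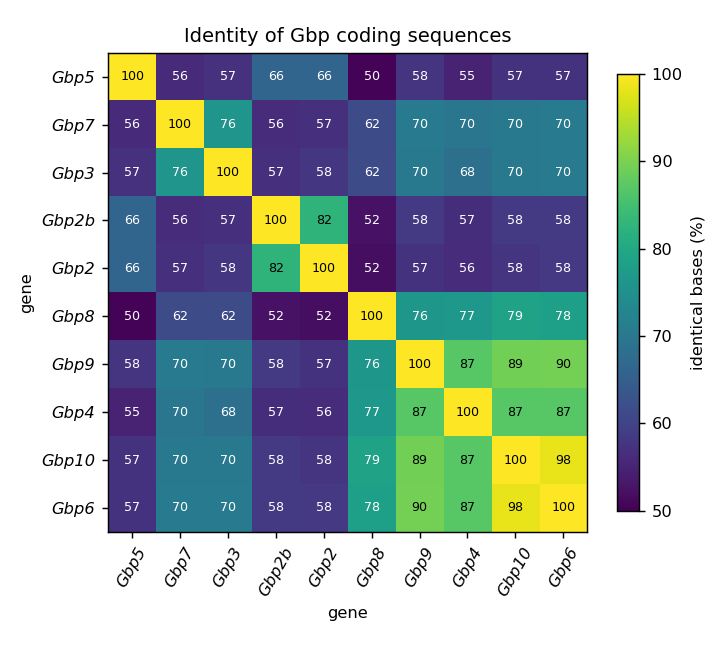
Percent of identical bases between the aligned coding sequences of the 10 Gbp genes, ordered by position on chromosome 3 and then chromosome 5, with the value in each cell rounded to a whole percent. The chromosome 5 genes form a block of high identity that peaks at 98% for Gbp10 and Gbp6, while Gbp5 is at or below 66% with every other member.

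The genes of the interferon pathway that act before and beside the GBPs were read from a list of 20, of which 18 were tested, 5 called higher and 0 lower, where 2.95% of all genes were called higher (median log2-fold change 0.41, against -0.00064 over all genes tested). The ligand Ifnb1 was counted 1, 0 and 0 times in GSK-J4 and 250, 234 and 189 times in LPS + GSK-J4, a ratio of scaled counts of 1010 with a 95% exact interval of 181 to 40000 that covers counting error only (adjusted p = 1.69e-11). Ifng, the gene of interferon gamma, had 0 counts in every library. Irf1, a transcription factor that binds the ISRE, rose from 46.2 ± 8.37 to 451 ± 21.2 CPM (log2-fold change 3.27, adjusted p = 7.11e-11). The feedback inhibitors Socs1 (2.55), Socs3 (2.98) and Usp18 (1.54) were also called higher, and the call of Usp18 was lost under several alternatives. Ifnb1 and Socs1 had mean GSK-J4 levels under the filter level and passed it through LPS + GSK-J4. The kinase gene Jak2 (0.80, adjusted p = 0.000605) and the factors Irf7 (1.37, adjusted p = 0.000225) and Irf9 (0.62, adjusted p = 0.0112) did not meet both thresholds. No receptor gene was called, and the log2-fold changes of the 4 in the list lay between -0.32 and 0.28.

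Of 9 genes of LPS sensing, 8 were tested, 0 were called higher and 1 lower (median log2-fold change 0.22). Over all genes 2.95% were called higher and 0.809% lower. Ticam2, an adaptor of TLR4 on the route to interferon beta, fell from 82.3 ± 15.3 to 24.3 ± 2.42 CPM (log2-fold change -1.76, adjusted p = 1.65e-06). Cd14 (0.89), Myd88 (0.80) and Ticam1 (0.74) had adjusted p values under 0.01 and stayed below the fold threshold.

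Other GTPases, of which several act on vacuoles beside the GBPs, were read from a list of 11. Of 6 tested, 5 were called higher and 0 lower, where 2.95% of all genes were called higher (median log2-fold change 2.28). Mx2 and Ifi47 had mean GSK-J4 levels under the filter level of 3.17 CPM and passed the filter through LPS + GSK-J4. Irgm2 was near that level, with 13, 10 and 9 counts in GSK-J4. The count and the median therefore give no support of their own. Irgm1 rose from 18.8 ± 3.69 to 78.0 ± 10.1 CPM, with a log2-fold change of 2.03. Mx2 (3.87), Ifi47 (3.02), Irgm2 (2.53) and Igtp (1.85) were also called higher, and Mx1 (1.30, adjusted p = 0.00331) was not. Mx2 rested on 10, 3 and 3 fragments in GSK-J4, and its log2-fold change was 4.58 without GSK-J4 replicate 1. The other 5 genes of this list were too low to be tested.

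No gene was called among the 10 of ATG8 conjugation (median log2-fold change -0.34) or the 6 enzymes that prenylate and trim CaaX proteins (median -0.04). Atg12 was at a log2-fold change of -1.22 (adjusted p = 7.65e-06), Sqstm1 at 0.91 (adjusted p = 7.62e-06) and Gabarapl1 at -0.44 (adjusted p = 0.0118). Among the prenylation enzymes Pggt1b (0.50), Zmpste24 (-0.14) and Rce1 (-0.12) had the lowest adjusted p, none under 0.01. Of 8 inflammasome genes that act after the GBPs, 3 were called higher and 0 lower (median -0.05), where 2.95% of all genes were called higher. Nlrp3, the sensor, rose from 29.9 ± 3.81 to 375 ± 19.3 CPM (log2-fold change 3.64), Il1b, the cytokine gene, from 10.9 ± 4.37 to 182 ± 10.7 CPM (4.00), and Casp4, the sensor of cytosolic LPS, from 9.34 ± 4.70 to 37.1 ± 5.58 CPM (1.92). Gsdmd (-0.62, adjusted p = 0.0238), Pycard (-0.17) and Aim2 (-0.06) were not called.

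**Figure D5:**
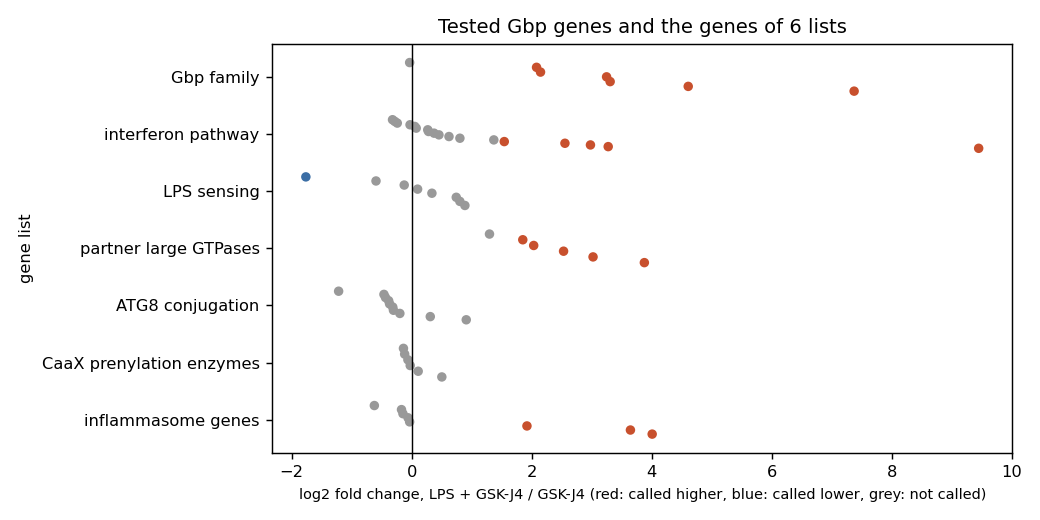
Log2-fold change of each tested Gbp gene and of each tested gene in the 6 lists, 1 point per gene, in red where called higher, blue where called lower and grey otherwise. The Gbp row has 6 red points between 2.08 and 7.37 with 1 grey point at -0.03, and no point is coloured in the rows of ATG8 conjugation and CaaX prenylation.

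The genes whose levels over the 6 libraries were nearest to the mean profile of the 6 called members were Il1a, Tnfaip3, Rtp4, Irf1 and Nlrp3, at Euclidean distances of 0.299, 0.300, 0.443, 0.475 and 0.549 on the centred log2 CPM scale. This is a measure over 6 libraries that differ mainly by treatment.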

How the data were processed

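Gene counts of 6 RNA-seq libraries of PM, made from ribosomal RNA-depleted RNA with a directional kit, were analysed. The authors deposited raw counts per gene for each library, unstranded and for each strand, and the reverse-strand counts were used. Per the submitters' processing notes the tools were CASAVA 1.8.2, Trimmomatic 0.33, STAR 2.5.1 and DESeq2, with mm10. The annotation used for counting is not given in the sources used here. Fragments that map to several places are tallied apart and are in no gene's count.

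Groups were taken from the labels. The counts were scaled by TMM, filtered with filterByExpr (minimum count 10, minimum total 15) and tested over all 10133 genes that remained with edgeR 4.0.16 (robust quasi-likelihood test, R 4.3.3, limma 3.58.1), without covariates. The Benjamini-Hochberg adjustment ran over all of these genes. Depth was 2597505 to 3472716 fragments per library, the Ifnb1 interval covers counting error only while that of Gbp9 uses the standard error of the fit, and the common biological coefficient of variation was 0.133. With 3 libraries against 3 an exact permutation p cannot fall below 0.1. The members and gene lists were chosen with earlier results of these data known.

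Named genes were the 10 members, other Gbp features, the called genes of each list and up to 3 more with the lowest adjusted p, and the 5 genes nearest in profile. The neighbours of the clusters were added outside this rule. Coding sequences of GENCODE transcripts were compared with Biopython 1.88 in place of the proteins, which were not used here. Positions and promoters are from RefSeq (GRCm38). Tables were joined with pandas 2.3.3 and numpy 2.4.6, and figures drawn with matplotlib 3.10.9, in Python 3.11.15 with scipy 1.17.1. Alternatives were unstranded counts, DESeq2 1.42.0 and its size factors, other filters and thresholds, a replicate block, removal of ribosomal features and leaving out libraries.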

Additional observations from a re-analysis of the deposited data

Results flagged for a closer look

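The strand opposite to the genes was not used in the comparisons. Its counts were low. They lay higher in every library with LPS than in any without for Gbp5, Gbp7, the sum of the 10 members and Mir6381. That sum holds the Gbp5 and Gbp7 counts, and none of the other members had this pattern. The share of all features with this pattern is not given here. Sense counts rose too, from 12 to 1371 for Gbp5 and from 35 to 221 for Gbp7, summed over the 3 libraries of a group. The Mir6381 item counts fragments on the sense strand of Gbp2. Whether antisense counts rose beyond the sense counts was not tested. Summed over the 10 members, antisense fragments numbered 3, 1 and 2 in GSK-J4 and 15, 12 and 9 in LPS + GSK-J4. As a share of both strands these were 1.91%, 0.746% and 3.64% in GSK-J4 and 1.71%, 1.35% and 1.13% in LPS + GSK-J4, beside 0.966% to 1.38% over all genes. Antisense fragments of Gbp5 numbered 1, 0 and 0 in GSK-J4 and 3, 5 and 3 in LPS + GSK-J4. Those of Gbp7 numbered 0, 0 and 1, and 5, 3 and 3. At Mir6381, whose antisense strand is the strand of Gbp2, they numbered 2, 0 and 0 in GSK-J4 and 9, 14 and 14 in LPS + GSK-J4, while the strand of Mir6381 itself had 0 counts in every library.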

How the results depend on the processing

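The 6 called members kept their calls under every alternative in which they could be fitted, with log2-fold changes of 6.93 to 8.22 for Gbp5, 4.33 to 5.03 for Gbp3, 2.92 to 3.79 for Gbp2, 2.96 to 3.70 for Gbp7, 1.83 to 2.34 for Gbp10 and 1.78 to 2.28 for Gbp6. With at least 10 counts required in every library, 176 genes were called higher and 0 members, because Gbp9 was then the member left to test. With looser thresholds, 0.05 for the adjusted p and 1 for the log2-fold change, 844 genes (8.33%) were called higher, 285 lower and the members called numbered 6. DESeq2 called 253 genes higher, 89 lower and 6 members. Leaving out 1 library at a time gave 271 to 374 genes higher, 79 to 100 lower and 6 to 7 members, the additional member being Gbp2b without GSK-J4 replicate 3 or LPS + GSK-J4 replicate 2. Without replicate 3 of both groups, an alternative chosen after the data were seen, 297 genes were higher, 90 lower and 6 members called. Gbp9 changed sign to 0.070, 0.027 and 0.072 without GSK-J4 replicate 1, GSK-J4 replicate 2 and LPS + GSK-J4 replicate 2, and its values with libraries left out ran from -0.19 to 0.072.

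Signs also changed when libraries were left out for Pycard (-0.50 to 0.038), Aim2 (-0.22 to 0.069), Pkn2 (-0.066 to 0.18) and Lrrc8b (-0.036 to 0.40), and for Pkn2 (-0.00206) with no filter. Usp18 fell below the fold threshold with no filter (1.49), with the replicate block (1.49), without GSK-J4 replicate 3 (1.43), without LPS + GSK-J4 replicate 3 (1.26) and without replicate 3 of both groups (1.16). Igtp did so without replicate 3 of both groups (1.49), and Irf7 passed it without LPS + GSK-J4 replicate 1 (1.51). The cause of these changes was not tested. Replicate numbers are shared between the groups. The deviations of same-numbered libraries correlated at -0.01, 0.12 and 0.29, and those of different-numbered libraries at -0.29 to 0.24. The numbers were not taken as a pairing in the main fit. The value of replicate 3 was above all those of different-numbered libraries, and whether its 2 libraries are linked was not tested. With the replicate block 306 genes were higher, 90 lower and 6 members called. Low counts limit the members, and 4 of the 10 were under 3 counts in at least 2 GSK-J4 libraries.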

Other observations

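The tested protein-coding genes nearest to each cluster, 2 on each side, were read beside the members. This choice is outside the rule for named genes and was made after the count tables were available. On chromosome 3 they were Unc5c and Pdlim5 at 662 and 101 kb before the cluster and Gtf2b and Pkn2 at 127 and 153 kb after it. On chromosome 5 they were Spp1 and Pkd2 at 571 and 507 kb before the cluster and Lrrc8b and Lrrc8c at 68.7 and 173 kb after it. None of the 8 was called. Unc5c was the closest to the threshold, with a log2-fold change of 1.49 ± 0.29 (SE), adjusted p = 0.00114, and it was called with unstranded counts (1.52), without GSK-J4 replicate 1 (1.67), without LPS + GSK-J4 replicate 1 (1.73) and with the looser thresholds. Lrrc8c (1.05, adjusted p = 0.000467), Pdlim5 (0.75, adjusted p = 0.000246) and Spp1 (0.43, adjusted p = 0.00562) stayed below the fold threshold. Pkd2 (0.67), Lrrc8b (0.21), Gtf2b (0.17) and Pkn2 (0.05) had adjusted p values of 0.095 or more.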
